A study of Mus musculus with 6 samples.

Results

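The genes described here are 10 markers of blood vessel endothelium and of the sinusoids of the liver: Pecam1, Cdh5, Kdr, Tek, Tie1, Stab1, Stab2, Lyve1, Emcn and Eng. They were measured by every probe set that the array's annotation assigns to 1 of these genes alone. This gave 13 probe sets of 45101 on the array, 2 each for Cdh5, Lyve1 and Eng and 1 each for the other 7 genes. All 13 passed the filter on low signals.

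Endothelial cells line all vessels, and in the fetal liver they form the sinusoids, thin-walled channels between which red cells develop. They are held together by adhesion proteins such as the cadherin Cdh5, and they survive on signals received through the VEGF receptor Kdr and the angiopoietin receptor Tek. Sinusoidal endothelium also carries scavenger receptors, among them Stab1, Stab2 and the hyaluronan receptor Lyve1, which take up waste molecules from blood. Several of these genes are also used by other cells: Pecam1 by platelets and white cells, Stab1 and Lyve1 by macrophages, and Tek, Eng and Emcn by blood stem cells.

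Arrays were hybridised with 3 RNA samples from EKLF knockout (-/-) fetal liver and 3 from wild-type fetal liver, with the number of livers in each not stated, all labelled C57BL/6 at day 13.5 of gestation. Eklf (symbol Klf1) codes for a DNA-binding regulator of red cell genes, and its loss is lethal to the fetus through failed red cell production. The labels trace the knockout to targeting clones made from a strain 129 library and injected into C57BL/6 blastocysts, and the cells that were kept by the sort are called early erythroid progenitors, stained with 7AAD, anti-CD71 and Ter119. Endothelial cells are not a population that the sort was labelled to collect, the sort gates are not stated in the labels, and in such bulk RNA a smaller number of cells of a type cannot be told apart from less RNA per cell.

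Values are MAS5 signals, a background-corrected intensity on a linear scale that the authors brought to a trimmed mean of 500 on every array. The median signal was 204 to 218 on the knockout arrays and 97.7 to 140 on the wild-type arrays, with wild-type array 3 the lowest, so dim probe sets as a whole read higher on the knockout arrays. The targeted gene did not separate the groups: the probe set of Klf1 gave 3505, 1391 and 2545 on the knockout arrays and 2508, 2706 and 4030 on the wild-type arrays (adjusted p = 0.347), and whether it lies in the deleted part is not known here. The groups are therefore called by their labels. Erythroid markers were present in both groups but not at equal levels: 8 of 10 rose, against 27.9% of all genes. Tfrc (CD71), which the sort used, gave 7756 to 8419 on the knockout arrays and 5156 to 6169 on the wild-type arrays. Alas2, the first enzyme of red cell haem synthesis, was 15.3-fold higher in the knockout. The red cell membrane genes Kel, Epb42 and Rhag were 5.97-fold, 5.50-fold and 3.96-fold higher. Differences below are knockout minus wild type on the log2 scale, and no probe set's signal is set against another's. Sums over a list, given for the marker lists, are compared between groups only and give bright probe sets the most weight. With 3 arrays per group, the number of arrays limits the precision.

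The stretches around the annotated start of 4 members are shown, because 3 of them (Stab2, Kdr and Stab1) were higher on the knockout arrays while Eng was not. Klf1 is known to bind CACCC elements of erythroid genes. Capitals mark each CACCC or its reverse complement GGGTG, sequences are from RefSeq on GRCm38.p6, and each runs 5′ to 3′ along the gene's own strand. The Kdr window lies inside the gene span printed below for Kdr, so its annotated start is not the end of that span. The windows are chr10:87007893-87008192 (minus strand) for Stab2, chr5:75978406-75978705 (minus) for Kdr, chr14:31168592-31168891 (minus) for Stab1 and chr2:32646345-32646644 (plus) for Eng.
Stab2: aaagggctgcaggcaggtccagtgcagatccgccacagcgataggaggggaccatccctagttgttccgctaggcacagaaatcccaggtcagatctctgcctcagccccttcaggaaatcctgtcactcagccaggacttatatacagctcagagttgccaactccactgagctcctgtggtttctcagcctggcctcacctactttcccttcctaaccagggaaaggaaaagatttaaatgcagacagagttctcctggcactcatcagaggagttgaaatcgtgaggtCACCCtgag
Kdr: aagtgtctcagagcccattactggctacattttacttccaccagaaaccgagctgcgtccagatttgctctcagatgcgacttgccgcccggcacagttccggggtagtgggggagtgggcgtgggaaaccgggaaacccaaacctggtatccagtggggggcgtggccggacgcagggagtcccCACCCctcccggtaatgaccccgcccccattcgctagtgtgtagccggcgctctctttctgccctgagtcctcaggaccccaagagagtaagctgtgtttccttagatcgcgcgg
Stab1: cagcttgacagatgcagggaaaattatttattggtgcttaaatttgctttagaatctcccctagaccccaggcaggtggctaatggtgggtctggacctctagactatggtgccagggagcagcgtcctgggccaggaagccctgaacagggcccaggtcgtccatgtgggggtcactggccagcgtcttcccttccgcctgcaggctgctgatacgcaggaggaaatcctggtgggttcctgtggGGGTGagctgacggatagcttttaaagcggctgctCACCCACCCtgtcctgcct
Eng: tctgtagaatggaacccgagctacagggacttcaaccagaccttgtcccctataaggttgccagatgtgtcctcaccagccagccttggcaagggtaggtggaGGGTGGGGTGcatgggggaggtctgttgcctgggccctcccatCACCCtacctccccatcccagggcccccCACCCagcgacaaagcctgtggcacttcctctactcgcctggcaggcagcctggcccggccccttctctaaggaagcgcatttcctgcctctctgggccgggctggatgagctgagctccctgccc
The table of start regions held 7 of the 10 members. A CACCC on either strand was found in 6 of these 7 windows of 300 bases, against 57.5% of all 32851 windows of that length. Stab2 and Kdr had 1 match each, Stab1 had 3, of which 2 overlap each other, and Eng had 4. GATAA, the core of sites for Gata factors, was found on either strand in 2 of 7 windows (Tek and Emcn) against 25.4% of all, and GGAA, the core of sites for Ets factors, in 7 of 7 against 96% of all. A match describes the letters of the window and is not evidence of binding.

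Most of the endothelial markers read higher on the knockout arrays. Of the 13 probe sets 7, from 6 genes, rose at an adjusted p under 0.05, 1 fell and 5 did not pass the test. Of the 7, Tie1 and 1 Cdh5 probe set had wild-type means under the filter and passed it through their knockout signals, so a difference was favoured by the filter there. The other Cdh5 probe set averaged 100.2 on the wild-type arrays, over the filter's signal of 98.6. Its wild-type log2 signals, the scale on which the filter was set, averaged just under the filter, so the same holds for it. The share of all 27023 tested probe sets that rose was 28.1%, and the share that fell was 15.7%, or 43.8% in either direction. At an adjusted p under 0.01, 6 member probe sets rose and 0 fell, against 13.7% and 9.07% of all tested (22.7% in either direction). The median difference was 1.36 over the members and 0.32 over all probe sets tested. Signals of the groups did not overlap, with the knockout higher, for 10 of the 13 probe sets, against 37.5% of all tested. They did not overlap with the knockout lower for 1, against 20.1%, and they overlapped for 2.

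**Figure D1:**
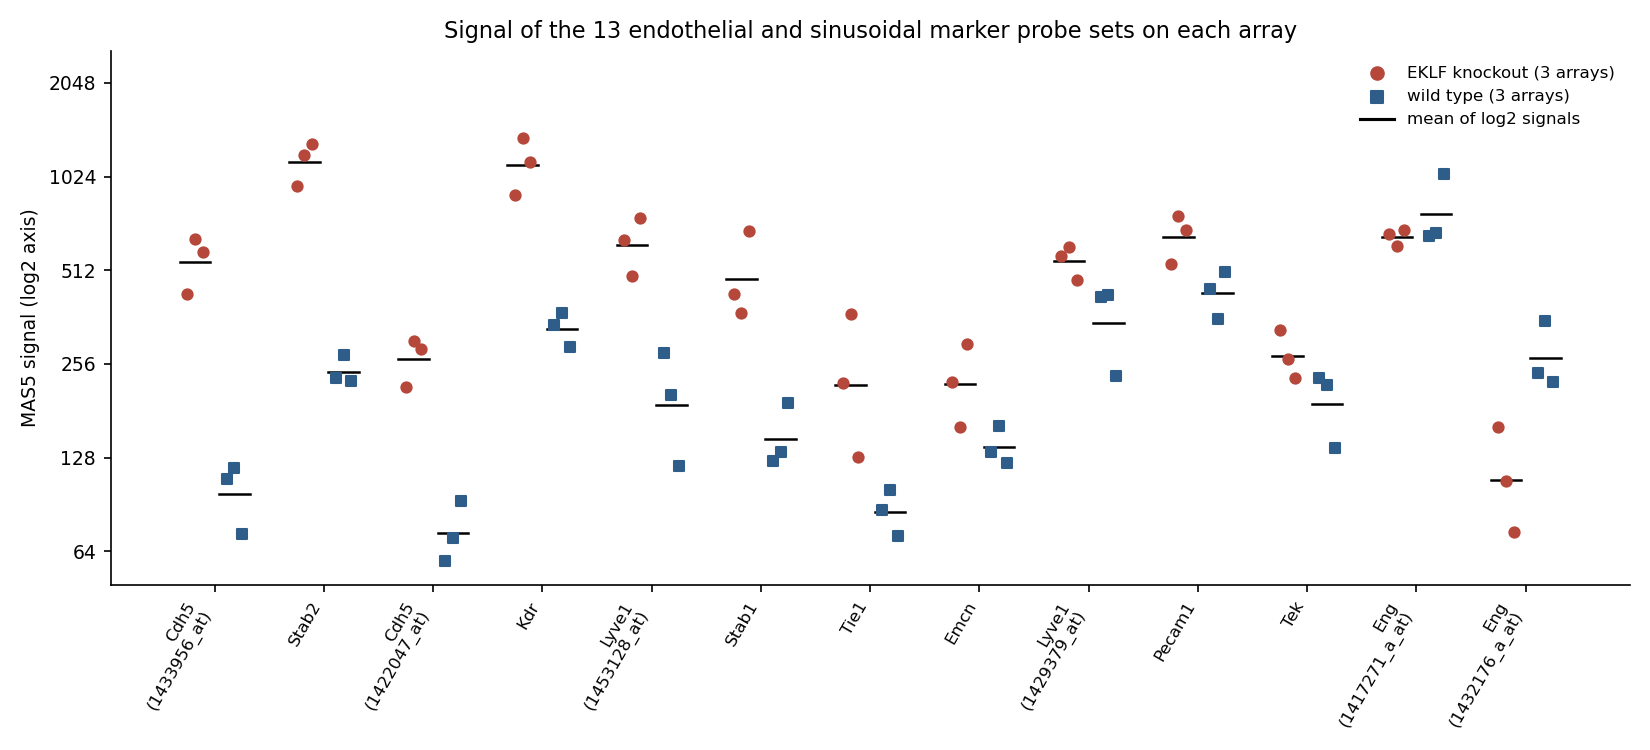
MAS5 signal (log2 axis) of each of the 13 probe sets on the 3 EKLF knockout arrays (circles, left of each pair) and the 3 wild-type arrays (squares, right), ordered by their difference, with lines at the mean of the log2 signals. Knockout circles lie above all wild-type squares for 10 probe sets and below them for 1 of the 2 Eng probe sets. Levels of different probe sets are not comparable.

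Stab2, a scavenger receptor that clears hyaluronan and is largely restricted to sinusoidal endothelium (GRCm38.p6 chromosome 10, 86841194 to 87008038), gave 957, 1198 and 1307 on the knockout arrays and 230, 273 and 226 on the wild-type arrays. Every knockout signal was above every wild-type signal, with a gap wider than the spread within either group. The means were 1154 ± 179 on the knockout arrays and 243 ± 25.9 on the wild-type arrays (SD, n = 3 each), a 4.73-fold rise (log2 difference 2.24 ± 0.21, SE; adjusted p = 0.000106), with a 95% interval from 1.76 to 2.73.

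Stab1, its paralog, found on sinusoidal endothelium and on macrophages (chromosome 14, 31139017 to 31168651), gave 430, 374 and 684 on the knockout arrays and 125, 133 and 191 on the wild-type arrays. The groups did not overlap, and knockout array 3 was the highest. The rise was 3.26-fold (log2 difference 1.70 ± 0.32, SE; adjusted p = 0.00364).

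Lyve1, a hyaluronan receptor of lymphatic and sinusoidal endothelium and of some macrophages (chromosome 7, 110850607 to 110862953), had 2 probe sets that differed in size of effect. The probe set 1453128_at gave 638, 492 and 753 on the knockout arrays and 278, 203 and 120 on the wild-type arrays, a 3.27-fold rise (log2 difference 1.71 ± 0.34, SE; adjusted p = 0.00452). The probe set 1429379_at gave 571, 607 and 477 on the knockout arrays and 420, 426 and 234 on the wild-type arrays. Its signals did not overlap between groups, but it did not pass the test (0.66 ± 0.28, adjusted p = 0.0848). On both probe sets wild-type array 3 was the lowest array of all 6. This was not particular to Lyve1, as that array was the lowest wild-type array for 9 of the 13 member probe sets.

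Of the adhesion and surface molecules, Cdh5 rose on both of its probe sets, and Pecam1 and Emcn did not pass the test. Cdh5, or VE-cadherin, the cadherin of junctions between endothelial cells (chromosome 8, 104101613 to 104144504), gave 431, 646 and 586 on the knockout arrays and 110, 119 and 72.7 on the wild-type arrays with the probe set 1433956_at. This was a 5.57-fold rise (log2 difference 2.48 ± 0.32, SE; adjusted p = 0.000478), and of the 13 probe sets it had the largest difference as deposited. The other Cdh5 probe set, 1422047_at, gave 216, 302 and 287 on the knockout arrays and 59.6, 70.7 and 92.8 on the wild-type arrays, a 3.63-fold rise (1.86 ± 0.36, adjusted p = 0.00376). Knockout array 1 was the lowest of its group on both. The wild-type mean of 1422047_at, 74.4, was under the filter's signal of 98.6, so this probe set passed the filter through its knockout signals and its fold rests on a dim value. The wild-type log2 signals of 1433956_at also averaged just under the filter, so it too passed through its knockout signals.

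Pecam1, or CD31, an adhesion protein of endothelium that platelets and white cells also carry (chromosome 11, 106654213 to 106715281), gave 535, 766 and 689 on the knockout arrays and 445, 357 and 507 on the wild-type arrays. The groups did not overlap, but knockout array 1 and wild-type array 3 lay close together, and the difference of 0.60 ± 0.23 (SE) did not pass over all probe sets (adjusted p = 0.062). It passed narrowly where each gene was taken at 1 probe set (adjusted p = 0.0483).

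Emcn, endomucin, a sialomucin of venous and capillary endothelium and of stem cells (chromosome 3, 137341062 to 137431069), gave 225, 161 and 296 on the knockout arrays and 133, 162 and 123 on the wild-type arrays. The groups overlapped, with knockout array 2 just under wild-type array 2, and the difference of 0.67 ± 0.34 (SE) did not pass (adjusted p = 0.138).

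The 3 receptor tyrosine kinases differed among themselves. Kdr, the main VEGF receptor of endothelium (chromosome 5, 75932827 to 75979072), gave 891, 1360 and 1138 on the knockout arrays and 342, 373 and 289 on the wild-type arrays. The groups were far apart, and the means of 1130 ± 235 on the knockout arrays and 335 ± 42.3 on the wild-type arrays (SD, n = 3 each) made a 3.35-fold rise (log2 difference 1.74 ± 0.22, SE; adjusted p = 0.000512). The 95% interval ran from 1.23 to 2.25.

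Tie1, a partner of Tek that binds no angiopoietin strongly on its own (chromosome 4, 118471191 to 118489849), gave 223, 370 and 129 on the knockout arrays and 86.6, 100 and 71.6 on the wild-type arrays. Its knockout signals were the most spread of the 13 probe sets, with an SD of 0.76 on the log2 scale. The 2.57-fold rise (1.36 ± 0.44, SE; adjusted p = 0.034) rests on dim wild-type signals, with a mean of 86.2, and the probe set passed the filter through its knockout signals. It was called in 1 of the 6 fits that left out an array, and lost the call without knockout array 1 (adjusted p = 0.0748), knockout array 2 (0.127), wild-type array 1 (0.0779), wild-type array 2 (0.0557) or wild-type array 3 (0.0706).

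Tek, or Tie2, the receptor for angiopoietins, which blood stem cells also carry (chromosome 4, 94739086 to 94874976), gave 329, 266 and 231 on the knockout arrays and 230, 219 and 138 on the wild-type arrays. Its lowest knockout signal and highest wild-type signal were almost equal, and the difference of 0.51 ± 0.32 (SE) did not pass (adjusted p = 0.209). The 95% interval ran from -0.20 to 1.23, and the difference between Tek and Kdr was not tested.

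Eng, or endoglin, a co-receptor for TGF-beta family ligands on endothelium and on early erythroid and stem cells (chromosome 2, 32646595 to 32682669), did not rise on either probe set. The probe set 1417271_a_at gave 672, 613 and 688 on the knockout arrays and 659, 673 and 1046 on the wild-type arrays, overlapping groups with 1 high array, wild-type array 3 (-0.24 ± 0.23, SE; adjusted p = 0.408). The probe set 1432176_a_at gave 160, 108 and 73.9 on the knockout arrays and 240, 352 and 225 on the wild-type arrays. These did not overlap, a 2.46-fold fall (-1.30 ± 0.39, SE; adjusted p = 0.0241). The call of 1432176_a_at was lost without knockout array 2 (adjusted p = 0.0578), knockout array 3 (0.0676), wild-type array 1 (0.0583) or wild-type array 2 (0.0945). The 2 probe sets were annotated from different source sequences, and which part of the transcript each reads is not known here.

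**Figure D2:**
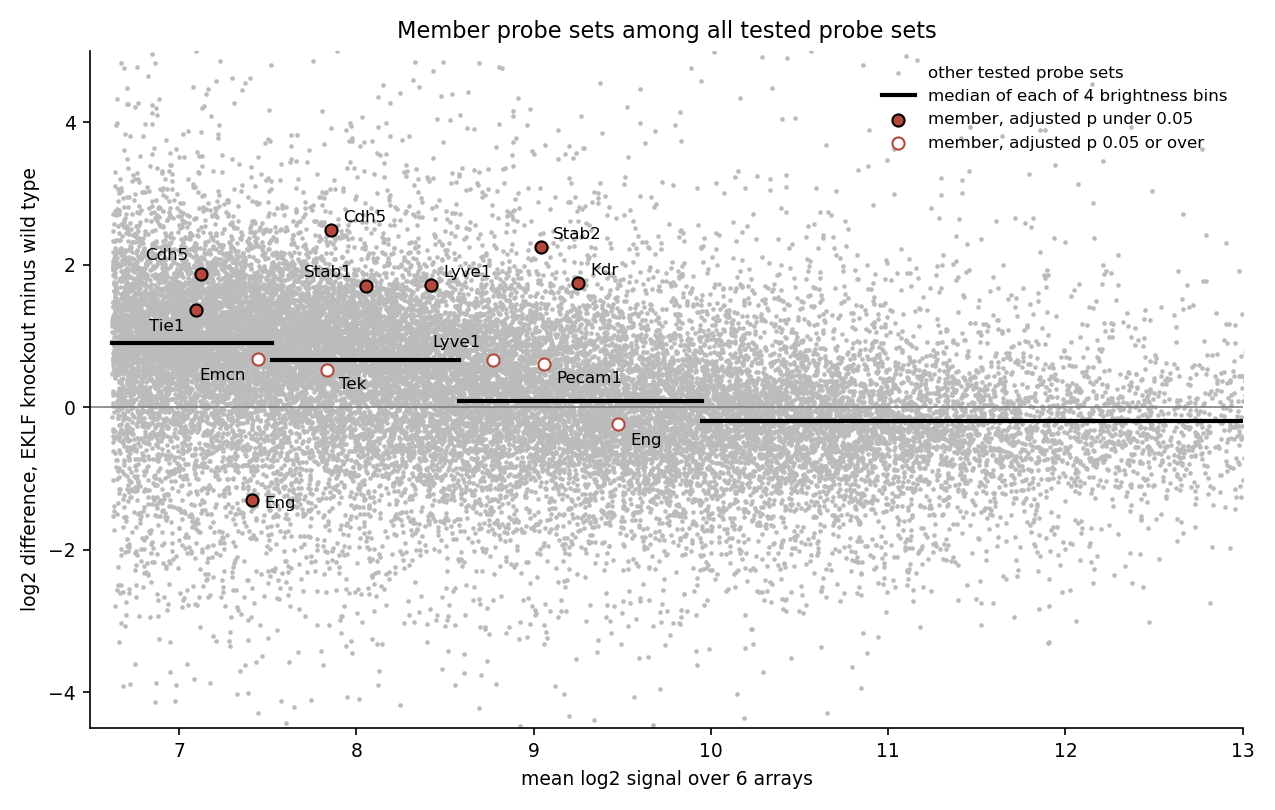
Log2 difference (EKLF knockout minus wild type) against mean log2 signal over the 6 arrays for all tested probe sets (grey) and the 13 member probe sets (filled where the adjusted p was under 0.05), with the median of each of 4 brightness bins as a black line. The medians slope downward, from 0.90 in the dimmest bin to -0.20 in the brightest, and Stab2, Kdr and one Cdh5 probe set stand well above the line of their bin. The 588 probe sets outside the axes are not drawn.

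The members were dim to middling on these arrays, which bears on how their counts are read. When all tested probe sets were divided into 4 bins of equal size by mean signal, 4 member probe sets fell in the dimmest bin, 4 in the next, 5 in the third and 0 in the brightest. In the dimmest bin the median difference was 0.90, with 36.4% of probe sets called higher, and 2 of the 4 members there rose. In the next bin it was 0.66, with 37.5% called higher, and 3 of 4 members rose. In the third bin it was 0.09, with 23% called higher, and 2 of 5 members, Stab2 and Kdr, rose. The 1 member probe set that fell, Eng 1432176_a_at, was in the dimmest bin, where 4.43% were called lower. The differences of Emcn, Tek and both Eng probe sets lay below the median of their own bins.

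Because the difference over all probe sets varied with brightness, each member difference was recomputed under 3 other scalings. Over all tested probe sets the deposited values had a median difference of 0.32, quantile normalization gave 0.006, cyclic loess 0.031 and median centring -0.49. Of all calls 64.2% were higher as deposited, 46.5% with quantile normalization, 47.8% with cyclic loess and 17% with median centring. Of the 13 member probe sets 5 were called higher under each of these scalings, where 15.4% (quantile), 15.8% (loess) and 7.77% (centring) of all tested probe sets were. Called lower were 1 member with quantile normalization, 1 with loess and 2, the Eng probe sets, with centring, against 17.7%, 17.2% and 38% of all tested.

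The 4 probe sets called higher as deposited and under all 3 other scalings were those of Stab2, Kdr, Cdh5 (1433956_at) and Lyve1 (1453128_at). Quantile normalization gave Stab2 a difference of 2.03, cyclic loess 2.07 and median centring 1.43. For Kdr these values were 1.60, 1.64 and 0.93, for Cdh5 1.94, 1.84 and 1.66, and for Lyve1 1.30, 1.29 and 0.89. Stab1 lost its call after median centring alone (0.89, adjusted p = 0.0616). The dim Cdh5 probe set 1422047_at lost it after quantile normalization (adjusted p = 0.0537) and cyclic loess (0.0706). Tie1 lost it under all 3 (0.51 to 0.57, adjusted p 0.316 to 0.374).

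Pecam1, Tek, Emcn and the second Lyve1 probe set did not keep their sign. Quantile normalization put Tek at -0.17, cyclic loess at -0.14 and median centring at -0.30, and Emcn at -0.096, -0.10 and -0.14. Pecam1 (-0.21) and Lyve1 1429379_at (-0.15) turned negative after median centring alone. Eng 1432176_a_at was lower under every scaling, at -1.97 (quantile), -2.08 (loess) and -2.11 (centring) (adjusted p 0.000716 to 0.00359).

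**Figure D3:**
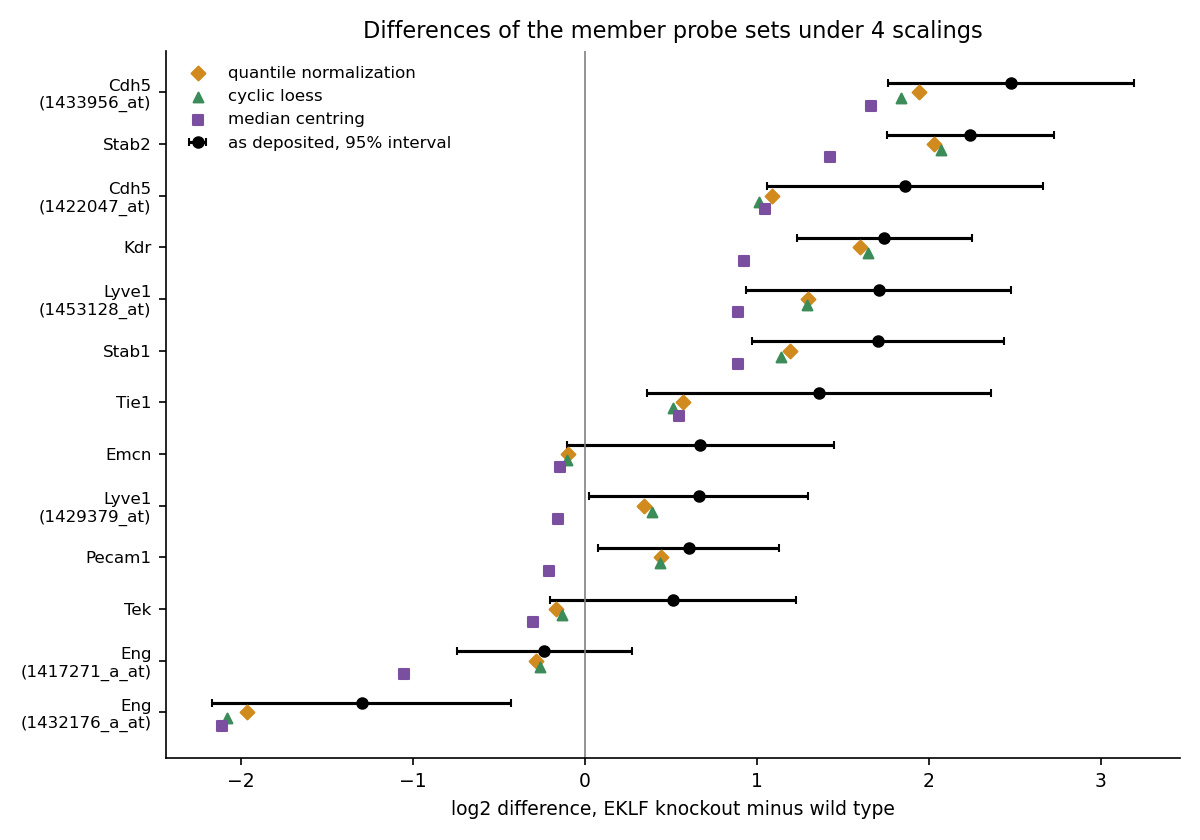
Log2 difference (EKLF knockout minus wild type) of each member probe set as deposited (black, with the 95% interval from limma) and after quantile normalization (diamonds), cyclic loess (triangles) and median centring (squares). Stab2, Kdr, both Cdh5 probe sets, Stab1, Tie1 and Lyve1 1453128_at stay to the right of 0 under all 4, Eng stays to the left, and Emcn and Tek cross it.

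A wider list of 32 other endothelial genes moved in both directions. In the fit over genes, each at its brightest probe set, 18 of the 31 tested rose and 7 fell, against 27.9% and 20.8% of all 12799 genes, and their median difference was 1.28 against 0.14 over all genes. Of the 18, 7 had wild-type means under the filter and were tested because their knockout signals were high, which left 11 that did not. On the same footing 6 of the 10 member genes rose and 0 fell, with Pecam1 among them and Lyve1 not (adjusted p = 0.069 at its brightest probe set), and 4 or 5 rose when any 1 array was left out. With quantile normalization 13 of the wider list rose and 8 fell, against 17.4% and 21.4% of all genes, and with median centring 13 rose and 9 fell, against 8.48% and 47.9%. With cyclic loess 13 rose and 8 fell, against 17.9% and 20.8%. Of these 32 genes 10 also stand in another list used here. Leaving out 1 array at a time, 16 to 19 rose and 6 to 8 fell.

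The endothelial genes that rose with the smallest p were Vwf, Nrp2, Ramp2 and Ptprb. Vwf, the clotting factor stored by endothelium and by megakaryocytes, gave 1725, 2215 and 2116 on the knockout arrays and 194, 144 and 200 on the wild-type arrays (3.50 ± 0.21, SE; adjusted p = 6.99e-06). Nrp2, a VEGF co-receptor, rose by 2.12, Ptprb, the phosphatase VE-PTP that acts on Tek and Cdh5, by 2.32, and Ramp2, a partner of the adrenomedullin receptor, by 1.76. These 4 kept their call under each of the 3 other scalings. The wild-type mean of Ptprb, 75.9, was under the filter, so it was tested because its knockout signals were high.

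The endothelial genes that fell with the smallest p are shared with blood stem and progenitor cells. Fli1, Erg and Ets1 encode Ets family transcription factors, and Cd34 a sialomucin of progenitors and endothelium. Erg gave 202, 250 and 196 on the knockout arrays and 1258, 1264 and 1051 on the wild-type arrays, far apart (-2.47 ± 0.20, SE; adjusted p = 2.64e-05). Fli1 fell by 2.30, Ets1 fell by 2.30 and Cd34 fell by 2.07, and all of these kept their call under the other scalings. The other tested probe sets of Ets1 disagreed, at -2.22 to 0.89.

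Among 15 other sinusoidal genes 6 of the 10 tested rose and 2 fell (4 and 2 after quantile normalization, 3 and 2 after median centring), and 5 were under the filter. Over all genes 27.9% rose and 20.8% fell, 17.4% and 21.4% after quantile normalization and 8.48% and 47.9% after median centring. Leaving out 1 array at a time, 4 or 5 of the sinusoidal genes rose. Of them 1 fell without knockout array 1 or 3 or wild-type array 1 or 2, and 2 fell in the other fits. Oit3, a secreted protein used as a marker of sinusoidal endothelium, gave 521, 708 and 540 on the knockout arrays and 171, 97 and 72.3 on the wild-type arrays, again with no overlap (2.46 ± 0.34, SE; adjusted p = 0.000504). Mrc1, the mannose receptor of sinusoidal endothelium and macrophages, rose by 2.43, and Maf, a transcription factor of both, by 1.68. Gpr182, a chemokine-scavenging receptor of sinusoids, rose by 1.23 but did not pass with median centring (adjusted p = 0.286). Fcgr2b, an inhibitory Fc receptor of sinusoids and of B cells and myeloid cells, fell by 0.85. Adgrl4, an adhesion receptor, fell by 0.94 (adjusted p = 0.0313), while its other tested probe set gave -0.27.

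Of the ligands, co-receptors and partners of the member receptors, 6 of 13 tested genes rose and 2 fell (5 and 2 after quantile normalization, 4 and 6 after median centring), against 27.9% higher and 20.8% lower over all genes, 17.4% and 21.4% after quantile normalization and 8.48% and 47.9% after median centring. Of the 6 that rose, 4 (Flt1, Flt4, Nrp2 and Ptprb) are also counted in the wider endothelial list, and 2 (Flt1 and Ptprb) had wild-type means under the filter. Both other VEGF receptors rose, Flt1 by 2.71 (adjusted p = 0.000523) and Flt4, the receptor for VEGF-C, by 1.80 (adjusted p = 0.000787). Flt1 gave 356, 606 and 493 on the knockout arrays and 80.3, 104 and 45.5 on the wild-type arrays, so its fold rests on dim signals. Vegfa, the main ligand of Kdr, rose by 1.05 (adjusted p = 0.0106) but did not pass with median centring (0.24, adjusted p = 0.509). Vegfc, Pgf and Angpt2 were under the filter. Angpt1, the activating ligand of Tek, did not pass (-0.44 ± 0.48, SE; adjusted p = 0.471). It was called lower with median centring (-1.25, adjusted p = 0.012) but not with quantile normalization (0.109) or cyclic loess (0.129).

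Of the partners of Eng, Gdf2, or BMP9, a ligand made in the liver, rose by 0.94 (adjusted p = 0.013), and did not pass with quantile normalization (adjusted p = 0.126), cyclic loess (0.118) or median centring (0.726). Its receptor Acvrl1 did not pass (0.86 ± 0.34, SE; adjusted p = 0.0612). Tgfb1 fell by 1.05 (adjusted p = 0.0033) and its receptor Tgfbr2 fell by 1.16 (adjusted p = 0.00441), both also lower under the other scalings, while the other tested Tgfb1 probe set gave 0.006.

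Markers of other cells of the fetal liver moved with the same grouping. Over all genes tested, 27.9% were called higher and 20.8% lower as deposited, which is the share to set beside the counts below. Of 14 tested macrophage markers 12 were higher and 1 lower on the knockout arrays, with a summed signal of 19010 to 27080 on the knockout arrays and 12990 to 15570 on the wild-type arrays. The scavenger receptor Marco gave 1155, 1018 and 2066 on the knockout arrays and 11.5, 7.44 and 8.81 on the wild-type arrays. Csf1r, the receptor that most macrophages need, fell by 1.06, and Cd163 was under the filter, at 7.94 to 13.7 on the knockout arrays and 7.39 to 42.3 on the wild-type arrays. Of 14 megakaryocyte markers 11 rose and 0 fell, with sums of 48030 to 57080 on the knockout arrays and 16340 to 21780 on the wild-type arrays. Those named by p were Vwf, Itga2b (2.49), Ppbp (2.37) and Pf4 (2.31).

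Of 14 hepatocyte markers 14 rose, with sums of 146800 to 223900 on the knockout arrays and 9398 to 10050 on the wild-type arrays, and of 13 tested stromal markers 11 rose and 0 fell, with sums of 25430 to 39160 on the knockout arrays and 2715 to 3001 on the wild-type arrays. The member genes at their brightest probe sets summed to 5263 to 6360 on the knockout arrays and 2779 to 2897 on the wild-type arrays. The 32 other endothelial genes summed lower in the knockout, 17270 to 19900 against 22190 to 23120 on the wild-type arrays. For the other sinusoidal genes the sums were 5848 to 6793 (knockout) and 4339 to 5067 (wild type). For the ligands and co-receptors they were 10890 to 11850 (knockout) and 11570 to 13540 (wild type), which overlap. Of 14 stem and progenitor markers tested, 4 rose and 7 fell, with sums of 10490 to 12230 on the knockout arrays and 25040 to 27300 on the wild-type arrays. The erythroid list had 8 of 10 higher and 0 lower, the lymphoid list 0 of 5 higher and 5 lower, and the granulocyte list 0 of 7 higher and 4 lower. Over the 3 other scalings the risen genes numbered 8 to 10 of the macrophage, 8 to 11 of the megakaryocyte, 14 of the hepatocyte and 9 of the stromal markers. Of the erythroid markers 6 to 9 rose. Of the stem and progenitor markers 2 or 3 rose and 6 to 10 fell, and 5 of the lymphoid and 4 to 7 of the granulocyte markers fell. Over all genes 8.48% to 17.9% rose and 20.8% to 47.9% fell under these scalings. Wild-type means were under the filter for 4 of the 12 risen macrophage markers, 4 of the 11 stromal and 1 of the 14 hepatocyte markers, and knockout means for 3 of the 5 lymphoid markers that fell. The part of these other cells in the endothelial differences was not tested.

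**Figure D4:**
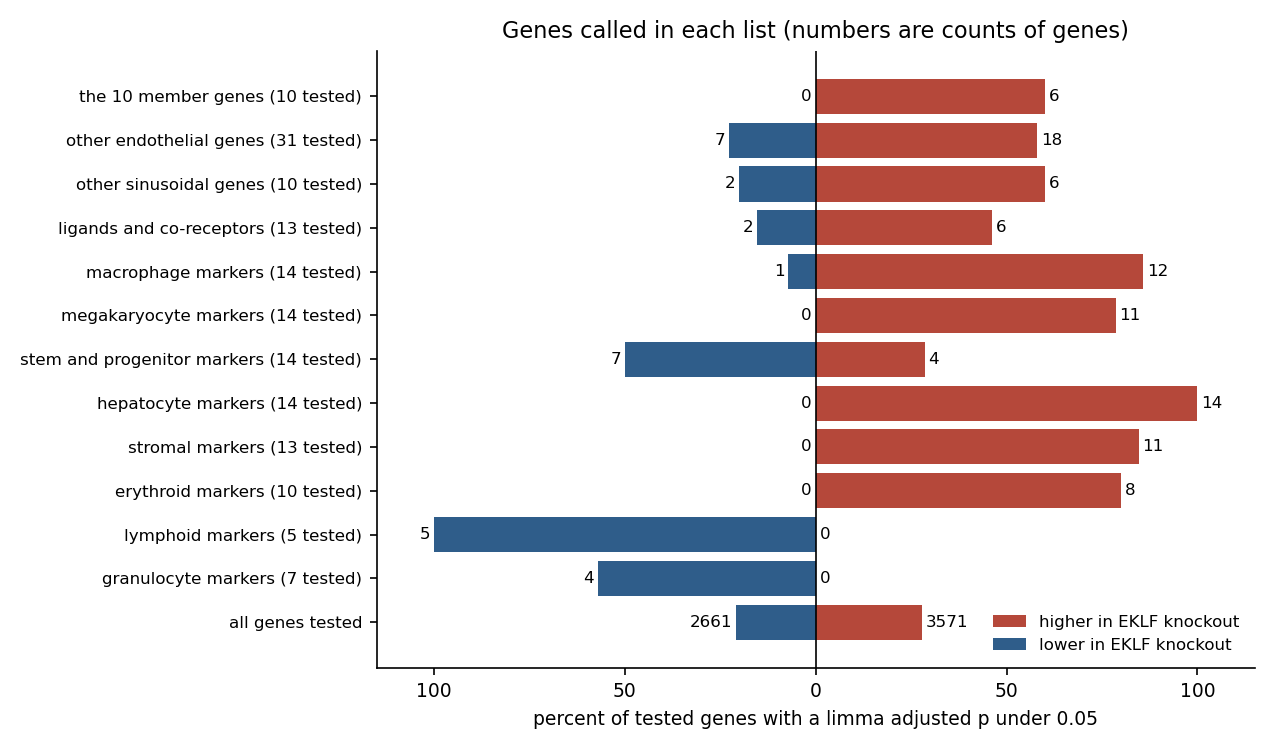
Percent of the tested genes of each list that were higher (right) or lower (left) on the EKLF knockout arrays at a limma adjusted p under 0.05, each gene at its brightest probe set; numbers at the bars are counts of genes. The 10 member genes have 6 higher and 0 lower, hepatocyte markers are all higher, lymphoid markers are all lower, and all genes tested stand at the bottom.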

How the data were processed

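RNA from 3 EKLF knockout and 3 wild-type sorted fetal liver samples was hybridised to 6 Affymetrix arrays. The deposited values are linear intensity signals, and each probe set has 1 signal per array. The submitters' processing notes name MAS5 and Affymetrix Expression Console. Versions, detection calls and batches are not stated there. Each array's mean without its top and bottom 2% was 500 in the deposited table.

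Of 45101 probe sets the annotation named 34958 with 1 gene and 932 with several, and did not list 9211. Symbols were updated to RefSeq through Entrez identifiers (34754 probe sets). The 303 signals below 1 were raised to 1 before log2. Probe sets whose log2 signals averaged under their 40th percentile, 6.62 (a signal of 98.6), and 64 control probe sets were left out, which left 27023. Knockout was tested against wild type by limma 3.58.1 (R 4.3.3; lmFit, then eBayes with a trend), two-sided, at a threshold of 0.05 after Benjamini-Hochberg adjustment across every probe set tested. Every adjusted p is limma's. For gene lists the fit was repeated over 12799 genes, each at its brightest probe set by mean log2 signal. The fits were tested on simulated data. The labels call the RNA samples independent but name no litters or pools, so p-values measure the spread between these samples, which may be technical in part.

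The members and gene lists were chosen with earlier results of these data known. The rule for named genes took all members, up to 4 called genes per list and direction with the smallest p, cell type markers of defining role at signals near 0 (Cd163), the genes whose profiles lie nearest to those of the 2 members with the highest mean signal, and Klf1. Tfrc, Vegfa, Gdf2, Angpt1, Acvrl1, Vegfc, Angpt2 and Pgf are named in addition, chosen once their values had been seen. Alternatives were 3 other scalings, 2 offsets, 2 filters, 2 variance models, 2 ways to join probe sets, a block on replicate number, leaving out single arrays, and an adjusted p under 0.01. Plots used Python 3.11.15 and matplotlib 3.10.9.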

Additional observations from a re-analysis of the deposited data

How the results depend on the processing

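Of 236 values of member probe sets under the alternatives, 203 kept direction and side of the threshold, 17 lost a call, 8 gained one and 8 turned sign. Those that turned were Tek after quantile normalization (-0.169), cyclic loess (-0.136) and median centring (-0.301), Emcn in the same order (-0.096, -0.104 and -0.144), and after median centring Pecam1 (-0.211) and Lyve1 1429379_at (-0.155). The calls over all probe sets, 11838, became 6232 with each gene at its brightest probe set, 5032 with probe sets averaged per gene and 6147 at an adjusted p under 0.01; the first 2 test fewer features. The 7 members called higher became 5 to 8 under the alternatives. The 1 called lower became 2 after median centring, 0 at the 60th percentile filter (which left 5 member probe sets out), 0 at the brightest probe sets, 0 at an adjusted p under 0.01 and 0 to 1 without 1 array. Without 1 array, Stab2, Kdr, Stab1, both Cdh5 probe sets and Lyve1 1453128_at were called in all 6 fits. Pecam1 was called without knockout array 1 (adjusted p = 0.0394) or wild-type array 3 (adjusted p = 0.0342). With the replicate number as a block 11829 probe sets were called, with 7 members higher and 1 lower. Same-numbered arrays deviated together weakly (correlations 0.042, 0.054 and 0.076), and each array matched best with its own number. Whether same-numbered arrays share a batch is not stated in the labels and was not tested. The cause of these changes was not tested. Signals near the filter, as for Tie1 and both Cdh5 probe sets, limit the size of a fold.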

Other observations

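Over the 6 arrays, the genes whose centred log2 profiles lay nearest to that of Kdr, among 12798 other genes tested, were Gucy1a1 (root mean square difference 0.039), AI463170 (0.066) and Rasip1 (0.082). Rasip1, a Ras-interacting protein needed for vessel lumens, is also on the list of other endothelial genes. Its signals were 184, 324 and 269 on the knockout arrays and 71.3, 84.9 and 66.3 on the wild-type arrays. They were low in the wild type and highest on knockout array 2, as for Kdr, a likeness that follows from how the gene was picked. The wild-type mean of Rasip1, 74.2, was under the filter. Its rise did not pass with quantile normalization (adjusted p = 0.0503) or cyclic loess (0.057). Gucy1a1, a subunit of soluble guanylate cyclase, gave 441, 639 and 552 on the knockout arrays and 167, 186 and 148 on the wild-type arrays. Nearest to the brightest Eng probe set were Birc5 (0.05), Uchl1 (0.053) and Alyref (0.06), all with wild-type array 3 as the highest array and no call between groups (adjusted p 0.222 to 0.389). These are descriptions over 6 arrays that fall into 2 groups, and similarity of profile was not tested.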
